A study of Mus musculus with 8 samples.

Results

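Cassette exons whose length is a multiple of 3 were examined in cultured mouse hippocampal neurons in which the splicing regulators Rbfox1 and Rbfox3 were depleted and a single Rbfox1 splice isoform was put back. Such an exon can be kept or skipped without shifting the reading frame downstream, so where it is coding it adds or removes whole codons. The exons were taken from the authors' 3 tables of cassette exons that differed between a pair of groups, with 1 entry per exon position. Of 544 exons in the union of these tables, 328 (60.3%) had a length divisible by 3, in 300 host gene symbols, and the other 216 are called frame-shifting here. The exons were thus selected on their measured inclusion change in these same comparisons, as well as on length. Every inclusion value below is a description and no splicing difference was tested.

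The 8 samples formed 4 groups of 2, all of them hippocampal cultures at 14 days in vitro (DIV). Every culture received an adeno-associated virus (AAV2/9) with the neuronal synapsin promoter (SynI) at 9 DIV, at 1500 genomic copies per cell for 12 hours, and then siRNA from 10 DIV for 4 days. Controls expressed EGFP and were given non-targeting siRNA. Knockdown cultures expressed EGFP and were given siRNA against both Rbfox1 and Rbfox3. Both rescue groups carried the knockdown siRNA too, together with a Flag-tagged Rbfox1 isoform marked siMt in place of EGFP, the cytoplasmic form (Flag-Rbfox1_C) in one and the nuclear form (Flag-Rbfox1_N) in the other. The comparisons were knockdown against control and each rescue against the knockdown, so all 3 share the knockdown values.

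Rbfox proteins bind the RNA word UGCAUG, mostly in introns. They are known to favour inclusion of an exon when bound downstream of it and skipping when bound upstream. Neurons use many short in-frame exons, microexons among them, which insert a few residues at protein surfaces of channels, synaptic scaffolds and motors. Rbfox1 itself is spliced into a nuclear form, which acts on splicing, and a cytoplasmic form, known for binding mRNA 3' ends.

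The sequences of several of these exons show how little each one adds. The first set holds microexons (27 nt or less), picked as examples of small inserts. Some microexons left out, such as those of Ap1b1 and Tbc1d24, had larger differences than some of those shown. Capitals mark whole codons inside the exon, and lower-case ends are bases of codons split across the splice junctions. The sequences are those of GENCODE M21 mouse transcripts (GRCm38), matched to the exons by chromosome, strand, exon length and the lengths of both neighbouring introns, and are written 5′ to 3′ on the transcript strand.
Kif3a: acCAAGCAg
Kif21a: cAGATCCACCAGAag
Arhgap44: cCTTAGGAAAATCCAAag
Dync1i2: ttTTTTCTGAGTACTGGg
Dst: TTCTTCCTGGGAAATCAG
Eif4g3: GGAGGATTCAGACCCATCCAG
Shank1: tCTGATCGATGGGATTGACTCAGGGag
In mm9, the build of the tables, the Kif3a exon lies at chr11:53404219-53404227 (plus strand) and the Kif21a exon at chr15:90778755-90778769 (minus strand). The Arhgap44 exon is at chr11:64826409-64826426 (minus strand), the Dync1i2 exon (Dncic2 in the tables) at chr2:71065884-71065901 (plus strand) and the Dst exon at chr1:34353587-34353604 (plus strand). The Eif4g3 exon is at chr4:137651824-137651844 (plus strand) and the Shank1 exon at chr7:51589403-51589429 (plus strand).

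The second set holds longer coding exons in genes of ion channels, kinases, adhesion and the cytoskeleton, shown because several of the larger differences between the groups were in them.
Cacna1a: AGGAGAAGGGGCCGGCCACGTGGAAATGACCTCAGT
Kcnd3: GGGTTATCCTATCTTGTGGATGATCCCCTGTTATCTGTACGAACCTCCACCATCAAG
Kcnip1: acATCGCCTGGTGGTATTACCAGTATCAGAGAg
Grin1: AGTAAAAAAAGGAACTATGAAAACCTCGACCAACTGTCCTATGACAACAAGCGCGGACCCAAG
Camk2g: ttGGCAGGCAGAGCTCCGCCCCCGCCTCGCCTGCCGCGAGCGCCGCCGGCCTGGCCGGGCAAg
Grip1: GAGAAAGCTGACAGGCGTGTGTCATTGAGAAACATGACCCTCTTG
Ncam1: GCATCGTGGACTCGACCAGAGAAGCAAGAG
Ndrg4: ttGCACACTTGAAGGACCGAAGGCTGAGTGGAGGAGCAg
Eml1: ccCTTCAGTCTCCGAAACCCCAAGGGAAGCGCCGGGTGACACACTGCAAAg
Cttn: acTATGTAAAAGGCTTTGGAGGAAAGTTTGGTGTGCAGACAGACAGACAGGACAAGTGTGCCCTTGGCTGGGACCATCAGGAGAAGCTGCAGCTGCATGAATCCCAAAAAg
Stxbp5l: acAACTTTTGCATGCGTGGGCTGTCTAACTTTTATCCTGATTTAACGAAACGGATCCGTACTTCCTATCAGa
The Cacna1a exon is at chr8:87159448-87159483 (plus strand) and the Kcnd3 exon at chr3:105469880-105469936 (plus strand). The Kcnip1 exon is at chr11:33551540-33551572 (minus strand) and the Grin1 exon, the N1 cassette near the amino terminus of this NMDA receptor subunit, at chr2:25166863-25166925 (minus strand). The Camk2g exon is at chr14:21576888-21576950 (minus strand), the Grip1 exon at chr10:119487288-119487332 (plus strand) and the Ndrg4 exon at chr8:98236225-98236263 (plus strand). The Ncam1 exon, known as VASE, is at chr9:49358645-49358674 (minus strand) and adds 10 codons to an immunoglobulin-like domain. The Eml1 exon is at chr12:109741393-109741443 (plus strand), the Cttn exon at chr7:151637932-151638042 (minus strand) and the Stxbp5l exon at chr16:37186737-37186808 (minus strand).

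The exons were mostly coding, and small. By the same length match, 313 of the 328 were found in GENCODE M21 and 15 were not. Of the 328, 255 (77.7%) were wholly coding in a protein-coding transcript, against 103 of the 216 frame-shifting exons (47.7%). A skipping junction was annotated for 227 of the matched exons. Another 11 held the stop codon of a coding transcript, among them exons of Slmap, Nf2, Synj1 and Kifc3, so that divisibility by 3 does not make every one of them an insert of codons alone. Of the remainder, 9 lay in a 5′ UTR, 4 held a start codon and 14 were in transcripts without a coding sequence. Another 20 matched no transcript of the protein-coding type and were placed in one annotated for nonsense-mediated decay.

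Among internal coding exons of GENCODE, 41.1% of 165095 had a length divisible by 3. The listed frame-preserving exons ran from 9 to 5331 nt with a median of 63 nt, where the GENCODE internal coding exons divisible by 3 had a median of 120 nt. Microexons made up 47 of the 328 (14.3%), against 7 of 216 frame-shifting exons (3.24%) and 1.70% of the GENCODE exons divisible by 3. The GENCODE exons are all internal coding exons, whether or not they are cassettes, and not all of the 328 are wholly coding. The sets are thus unlike in more than the listing. In the 255 wholly coding exons the frame at the junction was between codons in 112, after the first base of a codon in 97 and after the second base in 46 (43.9%, 38% and 18%). For GENCODE exons divisible by 3 these shares were 55.9%, 31.1% and 13%.

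The Rbfox word was not common inside the exons. TGCATG was present on the transcript strand in 9 of the 255 wholly coding exons (3.53%), and in 2.62% of internal coding exons of the same lengths. Its reverse complement CATGCA was present in 10. The exons with TGCATG were in Ccdc136, Cttn, Kcnma1, Macf1, Mbnl1, Mprip, Rev1, Stxbp5l and Tnk2, and the word can be read in the Cttn and Stxbp5l sequences above. The shorter word GCATG, which is part of it, was in 22 exons (8.63%, against 7.73% at the same lengths). The flanking introns, where most Rbfox sites lie, were not analysed here. Median GC content was 50.5% in the 255 exons and 51.0% in GENCODE exons divisible by 3.

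The gene-level tables give the state of the regulators and of the cultures. Rbfox1 stood at 25.7 FPKM in the control, 1.94 in the knockdown, 16.1 in the cytoplasmic and 38.2 in the nuclear rescue, and Rbfox3 at 12.4, 1.59, 1.59 and 1.53. FPKM are fragments scaled to transcript length and library size. Each is the authors' value for a group, pooled over its libraries, and no replicate spread can be given for any value here. The Rbfox1 levels of the rescues include reads from the introduced isoform where it shares sequence. Of 35 listed splicing regulators, 32 were measured in the knockdown table and 2 were called, Rbfox1 and Rbfox3, where 2.35% of all genes were. In the cytoplasmic rescue Rbfox1 alone was called among 32, where 0.506% of all genes were. In the nuclear rescue, of 31 measured and with 0.11% of all genes called, Rbfox1 was called higher and Rbfox2 lower, at 42.1 FPKM in the knockdown and 17.7 in the rescue (q = 1.72e-09 in the authors' deposited table). Neuronal markers were present throughout, with a summed level of 1265 FPKM in the control and 1256 to 1308 in the other groups for 6 of 7 listed genes. Single neuronal markers moved in opposite directions within that sum, Tubb3 at 291 FPKM in the control and 408 in the knockdown, Stmn2 at 220.1 and 267, and Snap25 at 456 and 323. Astrocyte markers summed to 903 to 1036 FPKM for 4 of 4 listed genes. The sums are over different genes, so they do not rank the cell types. Oligodendrocyte-lineage markers summed to 108 FPKM in the control and to 117 to 123 elsewhere, with Mbp at 11.6 and 20.1 to 22.6. Microglial markers summed to 7.24 FPKM in the control and 3.92 to 5.13 elsewhere, and vascular ones stayed below 1. In the control no measured marker was at 0. Both neuronal and glial markers were thus present, and the part of cell makeup in the inclusion values was not tested. In such bulk RNA, fewer cells of a type and less RNA per cell cannot be told apart.

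More of these exons had a lower than a higher inclusion in the knockdown. Of 123 frame-preserving exons listed in that table, 76 were less included in the knockdown and 47 more, where 56.5% of all 214 listed exons were less included. The frame-shifting exons were even, with 45 less and 46 more. The largest differences on the lower side were in exons of the calcium channel gene Cacna1a, the phosphatase gene Mtmr4 and the kinesin genes Kif21a and Kif13a. On the higher side they were in exons of the potassium channel gene Kcnd3 and of Cttn, which encodes the actin-binding protein cortactin. The inclusion fraction is the authors' estimate of the share of transcripts that keep the exon. Its median size of difference was 0.134, and the largest was 0.325.

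The cytoplasmic rescue had the reverse balance and the nuclear rescue none. Of 82 frame-preserving exons that differed between the cytoplasmic rescue and the knockdown, 29 were less and 53 more included in the rescue, where 40.7% of all 150 listed exons were less included. The Camk2g exon was among those with the largest differences on the more included side, and exons of Map4k2, a stress kinase, and Kcnd3 on the less included side. With the nuclear isoform 209 exons were listed, 106 less and 103 more included, and 54.1% of all 318 were less included. There the Camk2g and Grip1 exons led the more included, and the Kcnd3 and Stxbp5l exons the less included. Frame-shifting exons counted 32 less and 36 more in the cytoplasmic and 66 and 43 in the nuclear rescue. The listed exons overlapped only in part, with 68 listed in the knockdown comparison alone, 42 in the cytoplasmic and 154 in the nuclear one alone, and 22 in all 3.

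Short exons were mostly less included in the knockdown and mostly more included in the cytoplasmic rescue. The balance did not move steadily with length. Among exons of 60 nt or less, 41 of 54 were less included in the knockdown (75.9%), and above 60 nt 35 of 69 (50.7%). The frame-shifting exons had the same slant, with 15 of 22 short exons less included and 30 of 69 long ones. Among frame-preserving exons, 22 of 48 of 61 to 120 nt were less included in the knockdown, and 13 of 21 above 120 nt. In the cytoplasmic rescue the short exons leaned in the opposite direction, with 33 of 45 more included. There 9 of 22 exons of 61 to 120 nt were more included, and 11 of 15 above 120 nt. In the nuclear rescue the short exons were close to even, with 46 of 104 more included. Of 40 exons above 120 nt 26 were more included. Frame-shifting exons above 120 nt went the other way there, with 13 of 38 more included. Short frame-shifting exons counted 10 of 15 more included in the cytoplasmic and 14 of 28 in the nuclear rescue. Rescue and knockdown tables share the knockdown group, so these counts are not independent of each other.

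**Figure D1:**
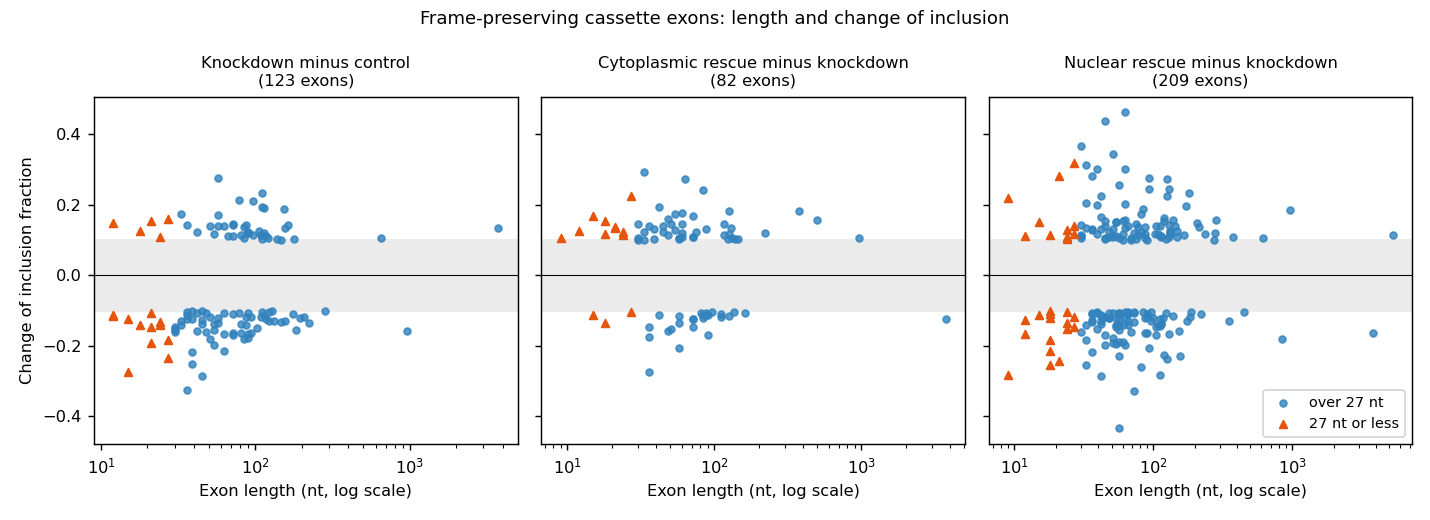
Change of the inclusion fraction (y axis) against exon length in nt (log x axis) for frame-preserving exons in each comparison, 1 point per exon, with triangles for microexons of 27 nt or less. The grey band, under 0.1 in size, is empty because the authors' tables list no exon there; in the knockdown panel 41 of 54 exons of 60 nt or less lie below 0.

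Microexons had the same slant as the other short exons in the knockdown. Of the 17 listed in the knockdown, 12 were less included. The largest difference among them was in Kif21a, a kinesin motor, whose 15-nt exon had an inclusion of 0.817 in the control and 0.543 in the knockdown. It rested on 223 inclusion and 30 skipping junction reads in the control and 145 and 66 in the knockdown. Shank1, a scaffold of excitatory synapses, kept its 27-nt exon at 0.403 in the control and 0.169 in the knockdown. Eif4g3, a translation initiation factor, had its 21-nt exon at 0.585 and 0.394. The 27-nt exon of the splicing factor Prpf18, which lies in a transcript without a coding sequence, stood at 0.366 and 0.183. Less included microexons were also found in Vti1a (0.724 and 0.578), Arhgap44 (0.296 and 0.156), Osbpl6 (0.537 and 0.405), Arhgap12 (0.310 and 0.185), Nrcam (0.953 and 0.838), Enah (0.419 and 0.306) and Kcnh7 (0.917 and 0.809).

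More included microexons were fewer. Dnm3, a dynamin of vesicle recycling, stood at 0.568 and 0.715 for a 12-nt exon. Ctage5 (Mia2 in GENCODE, 0.298 and 0.459), Arhgap21 (0.238 and 0.391) and Ash2l (0.379 and 0.506) were also more included in the knockdown.

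In the cytoplasmic rescue 10 of 13 microexons were more included than in the knockdown. Dync1i2, an intermediate chain of the dynein motor, had its 18-nt exon at 0.048 in the knockdown and 0.203 in the rescue, on 54 and 198 inclusion reads. The Kif21a exon stood at 0.711, the Prpf18 exon at 0.408 and the Eif4g3 exon at 0.527. Calcium channel subunits in this set were Cacna1b (12 nt, 0.734 and 0.860) and Cacna2d3 (18 nt, 0.669 and 0.786). The rest were Dync2h1 (mKIAA1997, 0.546 and 0.682), Prkd1 (0.430 and 0.552), Gopc (0.783 and 0.898) and Asap2 (9 nt, 0.517 and 0.622). Less included were Ash2l (0.506 and 0.372), Nfasc (15 nt, 0.366 and 0.253) and Mark2 (0.149 and 0.046).

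The nuclear rescue gave the longest microexon list, and 16 of 27 were less included than in the knockdown. A 9-nt exon of Ap1b1, a clathrin adaptor subunit, stood at 0.538 in the knockdown and 0.255 in the rescue. The 18-nt exon of Dst, a cytoskeletal linker, stood at 0.957 and 0.743, and that of Tbc1d24, a regulator of vesicle traffic, at 0.848 and 0.664. Adhesion and scaffold genes followed with smaller differences, among them Ptprd (12 nt, 0.703 and 0.576), Nfasc (18 nt, 0.671 and 0.560), Odz4 (Tenm4, 0.647 and 0.530) and Agrn (24 nt, 0.897 and 0.794). Ash2l (0.251), Arhgap21 (0.149), Kcnma1 (12 nt, 0.852 and 0.685), Csnk1g3 (0.931 and 0.778), Kifc3 (0.840 and 0.694), Synj1 (0.999 and 0.865), Nckap1 (0.636 and 0.515), Fnbp1l (0.886 and 0.772) and Inpp4a (0.838 and 0.736) completed the less included set.

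Of the 11 microexons more included in the nuclear rescue, the 9-nt exon of the kinesin Kif3a stood at 0.468 in the knockdown and 0.686 in the rescue, on 473 inclusion and 416 skipping reads and then 509 and 165. Nrxn3, a neurexin of presynaptic adhesion, had a 27-nt exon at 0.091 and 0.230. Prpf18 reached 0.501, Eif4g3 0.675 and Kif21a 0.695, and Osbpl6 stood at 0.405 and 0.534. The rest were Kif1a (0.428 and 0.530), Ocrl (0.777 and 0.885), Supt5h (0.849 and 0.961), Clasp2 (0.199 and 0.317) and Rps24 (0.073 and 0.188). For Rps24 the junction reads gave a far higher level than the authors' fraction, with 121 inclusion and 27 skipping reads in the knockdown.

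**Figure D2:**
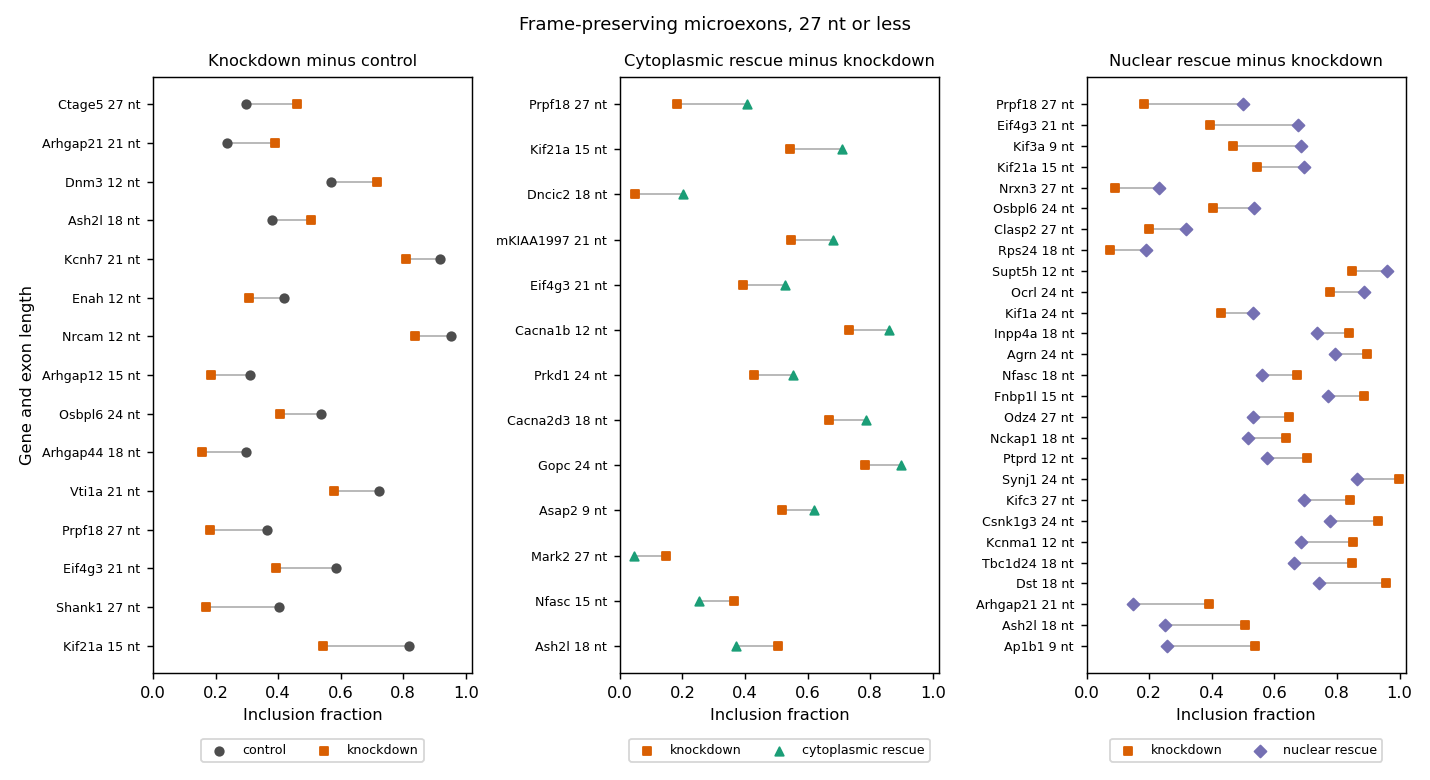
Inclusion fraction (x axis) of the frame-preserving microexons of 27 nt or less that are reported here in both groups of each comparison, sorted by the change, with a line joining the authors' value for each group. In the knockdown panel 11 of the 15 plotted exons are lower in the knockdown, and in the cytoplasmic panel 10 of 13 are higher in the rescue.

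The exons were next grouped by lists of host genes with a shared role. These lists were drawn up with earlier results of these data known, share a few genes and do not hold every gene of a role, so each count is of the list and not of a gene class. The ion channel and transporter list of 55 genes held 19 of the exons, and 6 of the 7 in the knockdown table were less included. Cacna1a, the pore of P/Q-type calcium channels, had its 36-nt exon at 0.808 in the control, 0.483 in the knockdown, 0.623 in the cytoplasmic and 0.765 in the nuclear rescue. Its junction reads were 113 inclusion and 15 skipping in the control, 62 and 44 in the knockdown, 127 and 48 in the cytoplasmic and 94 and 16 in the nuclear rescue. The control thus had the highest level and the knockdown the lowest.

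Kcnd3, an A-type potassium channel, went the other way. Its 57-nt exon stood at 0.466 in the control, 0.743 in the knockdown, 0.537 in the cytoplasmic and 0.309 in the nuclear rescue, the last below the control. Skipping reads were 105, 43, 82 and 123 in that order, against 262, 397, 281 and 162 inclusion reads. Kcnip2 and Kcnip1 encode partners of the same channels. The 54-nt Kcnip2 exon stood at 0.927 in the control, 0.772 in the knockdown and 0.901 in the cytoplasmic rescue. The 33-nt Kcnip1 exon was listed in the nuclear comparison alone, at 0.038 in the knockdown on 8 inclusion and 102 skipping reads, and at 0.352 in the rescue on 87 and 86.

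The Grin1 cassette was also listed in the nuclear comparison alone. It was nearly absent in the knockdown, at 0.004 on 4 inclusion and 611 skipping reads, and stood at 0.206 in the nuclear rescue on 255 and 472. The BK channel gene Kcnma1 held 2 listed exons, of 12 and 174 nt, and both were less included in the nuclear rescue, the longer one at 0.206 and 0.075. Across the channel list the counts were 1 less and 7 more in the cytoplasmic and 5 less and 6 more in the nuclear rescue.

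The list of 61 kinases, phosphatases and their partners held 10 of the exons. Camk2g, a subunit of calcium/calmodulin kinase II, had the largest difference of the nuclear comparison in its 63-nt exon. Inclusion was 0.352 in the control, 0.137 in the knockdown, 0.410 in the cytoplasmic and 0.599 in the nuclear rescue. Inclusion reads were 222, 72, 256 and 435, and skipping reads 268, 288, 228 and 189. Both rescues lay above the control. The related gene Camk2d had a 42-nt exon at 0.508 in the control, 0.350 in the knockdown and 0.545 in the cytoplasmic rescue. Pak3, a Rac-activated kinase, had a 63-nt exon at 0.118 in the knockdown and 0.419 in the nuclear rescue. The list counted 2 less and 0 more in the knockdown, 1 and 2 in the cytoplasmic and 3 and 5 in the nuclear rescue. The kinases Tnk2, Map4k2 and Brsk2 are not on it and had the other direction. Tnk2 was more included in the knockdown (0.472 and 0.683), and Map4k2 (0.730 and 0.456) and Brsk2 (0.538 and 0.379) were less included in the cytoplasmic rescue, so no balance of kinase genes can be read from the list.

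The synapse and traffic list of 71 genes held 22 of the exons, 4 less and 4 more included in the knockdown, 3 and 2 in the cytoplasmic and 7 and 9 in the nuclear rescue. Stxbp5l, a tomosyn that holds back vesicle fusion, had its 72-nt exon at 0.563 in the control and 0.674 in the knockdown, and at 0.526 and 0.347 in the cytoplasmic and nuclear rescues. The nuclear value was the lowest of the 4, on 100 inclusion and 91 skipping reads. Sorbs2, an adaptor of the actin cytoskeleton, stood at 0.596, 0.458, 0.580 and 0.613. A 111-nt exon of the liprin Ppfia4 (mKIAA0897 in the tables), which holds a stop codon, stood at 0.355, 0.548, 0.438 and 0.424. Clta, a clathrin light chain, was deeply read in the nuclear comparison, with inclusion at 0.817 in the knockdown and 0.6 in the rescue for a 36-nt exon, on 5943 and 4361 inclusion reads. Dlg2, a postsynaptic scaffold, had a 42-nt exon at 0.157 and 0.382. Outside this list, the 45-nt exon of Grip1, an AMPA receptor scaffold, had inclusion at 0.311 in the knockdown and 0.750 in the nuclear rescue, and that of the scaffold Tanc2 (30 nt) at 0.203 and 0.569.

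The cytoskeleton and motor list of 68 genes, which leaves out the kinesin Kif13a, held 23 exons, 8 less and 4 more included in the knockdown. Eml1, a microtubule-binding protein, had its 51-nt exon at 0.307 in the control, 0.125 in the knockdown, 0.270 in the cytoplasmic and 0.470 in the nuclear rescue. Cttn had a 111-nt exon, which encodes one of the actin-binding repeats of cortactin, at 0.476 in the control, 0.710 in the knockdown and 0.427 in the nuclear rescue. Its reads numbered 1345 inclusion and 543 skipping in the control, 2190 and 353 in the knockdown, and 1363 and 645 in the rescue. The 93-nt exon of Mapt, which encodes a microtubule-binding repeat of tau and was picked after its values were seen, stood at 0.914 in the knockdown and 0.709 in the nuclear rescue on 57 and 215 skipping reads. The list counted 2 less and 5 more in the cytoplasmic and 8 and 7 in the nuclear rescue.

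The adhesion and guidance list of 54 genes, which leaves out the adhesion gene Kirrel3, held 12 exons, 4 less and 1 more included in the knockdown. The VASE exon of Ncam1, a neural cell adhesion molecule, stood at 0.503 in the control and 0.348 in the knockdown, on 1476 inclusion and 766 skipping reads and then 1216 and 1212. Agrn, known for clustering receptors at synapses, had a 33-nt exon at 0.553 in the control, 0.727 in the knockdown and 0.472 in the nuclear rescue. Robo2, an axon guidance receptor, had a 126-nt exon at 0.109 in the knockdown, 0.226 in the cytoplasmic and 0.381 in the nuclear rescue. Counts for this list were 1 less and 2 more in the cytoplasmic and 5 and 3 in the nuclear rescue.

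The list of 66 small GTPase regulators and signalling adaptors held 13 exons, and that of 85 RNA-binding, transcription and chromatin genes held 8. Tsc2, a brake on mTOR signalling, had a 129-nt exon at 0.592 in the control, 0.491 in the knockdown, 0.625 in the cytoplasmic and 0.634 in the nuclear rescue. Kalrn, an exchange factor for small GTPases in spines, had a 93-nt exon at 0.216 in the knockdown and 0.493 in the nuclear rescue. The splicing factors Mbnl1 and Mbnl2 each had a 54-nt exon in the tables. That of Mbnl1 stood at 0.349 in the control, 0.467 in the knockdown and 0.325 in the nuclear rescue, and that of Mbnl2 at 0.447 in the knockdown and 0.300 in the nuclear rescue. The GTPase list counted 2 less and 2 more in the knockdown, 0 and 3 in the cytoplasmic and 4 and 5 in the nuclear rescue. The RNA and transcription list counted 1 and 1, 0 and 1, and 5 and 3. In all, 106 of the 328 exons, 31 of them microexons, were in a gene of a role list.

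Outside the lists, several exons were among the largest differences. In the knockdown these included Kif13a, a kinesin (39 nt, 0.457 and 0.206), Tnk2, a tyrosine kinase (96 nt), and Jag2, a Notch ligand (114 nt, 0.411 and 0.603). Mtmr4, a phosphoinositide phosphatase, had an exon that holds a start codon at 0.999 and 0.714, though its skipping reads were 0 and 6. In the cytoplasmic rescue Map4k2 (36 nt), Kirrel3, an adhesion protein (36 nt, 0.703 and 0.527), and Scrib (90 nt, 0.935 and 0.767) were less included. The Scrib exon had 2 skipping reads in the knockdown and 5 in that rescue. Brsk2 (48 nt) and Ankrd16 (57 nt, 0.409 and 0.274) were also less included there. Zfp277 (378 nt, 0.424 and 0.605), Rab7b (5430435G22Rik, 0.508 and 0.689), Sf1 (60 nt, 0.791 and 0.969) and Zfp2 (0.801 and 0.970) were more included there. In the nuclear rescue Nav3, a neuron navigator (42 nt, 0.627 and 0.342), Rnaseh1 (81 nt, 0.938 and 0.679) and Ripor2 (Fam65b, 0.566 and 0.328) were less included, and Dvl1, a Wnt signalling protein (39 nt, 0.216 and 0.517), was more included.

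Exons listed in all 3 comparisons allow the 4 groups to be set side by side. There were 22, and 19 of them had the same neighbouring exons in every table. For the other 3, Slmap, Sema6d and Ggta1, the tables used different neighbours and the knockdown value differed between tables (0.473 and 0.869 for Slmap). Of the 19, 13 were less included in the knockdown. The median distance between control and knockdown was 0.182, and that between control and rescue was 0.051 for the cytoplasmic and 0.059 for the nuclear isoform. These exons were listed because the knockdown differed from the control and from both rescues, and no difference between control and rescue was required. The larger distance from the knockdown is thus partly set by the choice of exons, and a return to the control level was not tested. The rescue value lay past the control in 6 of 19 with the cytoplasmic and in 13 of 19 with the nuclear isoform. The nuclear value was farther from the knockdown in 15 of the 19. Over the 27 exons listed in both rescues with the same neighbours, it was farther in 20, and the median difference between the rescues was 0.053. No exon was listed for differing between the rescues, and that difference was not tested. Rbfox1 stood at 16.1 FPKM in the cytoplasmic and 38.2 in the nuclear rescue, and Rbfox2 at 33.2 and 17.7. Isoform and regulator level thus cannot be told apart in these counts.

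Other exons of the 19 spanned several functions. Ndrg4, a neuronal hydrolase-like protein and the most deeply read exon, stood at 0.848 in the control, 0.630 in the knockdown, 0.761 in the cytoplasmic and 0.829 in the nuclear rescue. It had 1751 skipping reads in the control, 3518 in the knockdown, 2317 in the cytoplasmic and 1790 in the nuclear rescue. The nuclear value was near the control and the cytoplasmic one between. Kif21a stood at 0.817, 0.543, 0.711 and 0.695, and Oscp1 at 0.304, 0.152, 0.297 and 0.296, with the rescues nearly equal in both. Ermard (2210404J11Rik) stood at 0.878, 0.696, 0.938 and 0.885, and a 960-nt exon of the proliferation gene Mki67 at 0.960, 0.803, 0.909 and 0.988. Both of these rested on 10 skipping reads or fewer per group. For Mki67 the share of junction reads that include the exon was 97.2% in the knockdown and 97.1% in the cytoplasmic rescue. It was thus not higher in that rescue, unlike the authors' fraction. The 5′ UTR exon of Lingo1, a brake on axon growth, stood at 0.510, 0.653, 0.539 and 0.489, and Ash2l, a subunit of histone methyltransferases, at 0.379, 0.506, 0.372 and 0.251.

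**Figure D3:**
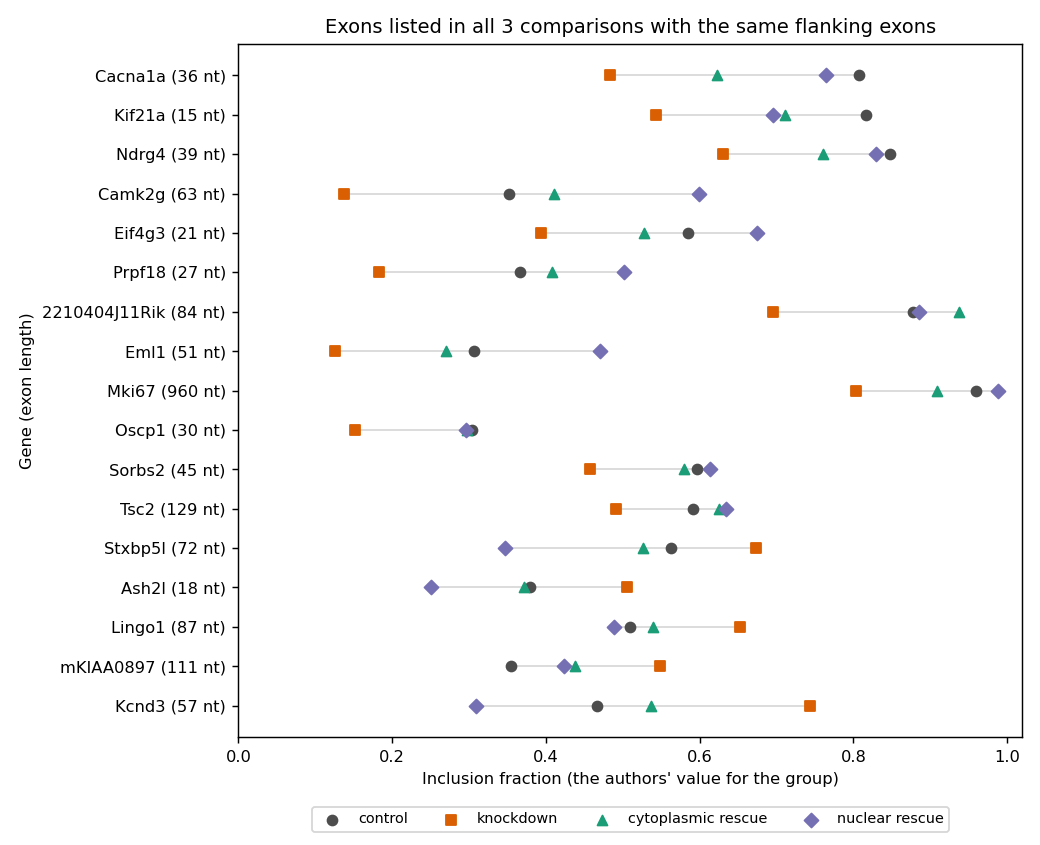
Inclusion fraction (x axis, the authors' value per group) in control, knockdown and both rescues for 17 of the 19 frame-preserving exons listed in all 3 comparisons with the same neighbouring exons, sorted by the knockdown change. The knockdown lies at 1 end of every line, and the nuclear rescue is farther from it than the cytoplasmic one in 14 of these 17 exons. The exons were chosen for a difference between the knockdown and each other group, and the rescues differ in Rbfox1 level as well as isoform.

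Junction reads show the counts behind each fraction. They come from the libraries that placed the exons in the tables, so they are no independent measure and nothing is supported with them. A transcript with the exon has a junction on each side, and a transcript without it has 1 skipping junction. Reads per exon and group ran from 31 to 13410 in the knockdown comparison, 19 to 12097 in the cytoplasmic and 50 to 13129 in the nuclear one. The share of junction reads that include the exon was given an exact 95% Clopper-Pearson interval, which covers counting error only and not the spread between samples. In the knockdown comparison the intervals of both groups did not overlap for 46 of the 123 exons (37.4%), where the share over all listed exons was 29.4%. In the cytoplasmic comparison it was 26 of 82 (31.7%, all listed 22%) and in the nuclear one 117 of 209 (56.0%, all listed 45.6%). The 26 of the cytoplasmic comparison were 3 of the 29 less included and 23 of the 53 more included exons. Over all listed exons of that comparison these were 6 of 61 and 27 of 89. All listed exons include the frame-preserving ones. Both junctions of an included transcript were counted as separate reads in these intervals. With inclusion reads halved the counts were 35 in the knockdown, 19 in the cytoplasmic and 107 in the nuclear comparison. The share over all listed exons is not given for that setting. Median junction reads in the control were 184 for frame-preserving and 145 for frame-shifting exons. For exons of the nuclear comparison they were 243 and 147 in the knockdown. More reads give narrower intervals, and the part of depth in these shares was not tested.

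Junction reads pointed opposite to the authors' fraction for 3 exons in each comparison. For 12 exons of the knockdown, 6 of the cytoplasmic and 18 of the nuclear comparison, the authors' fraction and the level from junction reads, with inclusion reads halved, lay more than 0.2 apart in a group. Acsl6, an acyl-CoA synthetase, was one, with an authors' fraction of 0.615 in the control and 0.829 in the knockdown on 9 and 6 skipping reads against 632 and 720 inclusion reads. An 87-nt exon of Mapt was another, at 0.325 and 0.185 with 24 and 37 skipping reads against 272 and 219. A noncoding exon of Snhg14 (D7Ertd715e) stood at 0.619 and 0.807 on 7 and 10 skipping reads. A 5331-nt exon of Macf1 stood at 0.416 and 0.531 in the nuclear comparison on 8 and 6 skipping reads. In these exons the fraction was well below what the few skipping reads would give. The same held for Ankrd16 and Brsk2 in the cytoplasmic and Rnaseh1 in the nuclear comparison. The gap was the other way for Zfp277, whose fractions of 0.424 and 0.605 stood above the levels from junction reads, 8.48% and 15.9%, on 33 inclusion and 178 skipping reads in the knockdown and 77 and 203 in the cytoplasmic rescue. It was also that way for the 123-nt exon of Mapk8ip3, a motor adaptor, at 0.884 and 0.779 in control and knockdown against 40.7% and 17.2% from junction reads.

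**Figure D4:**
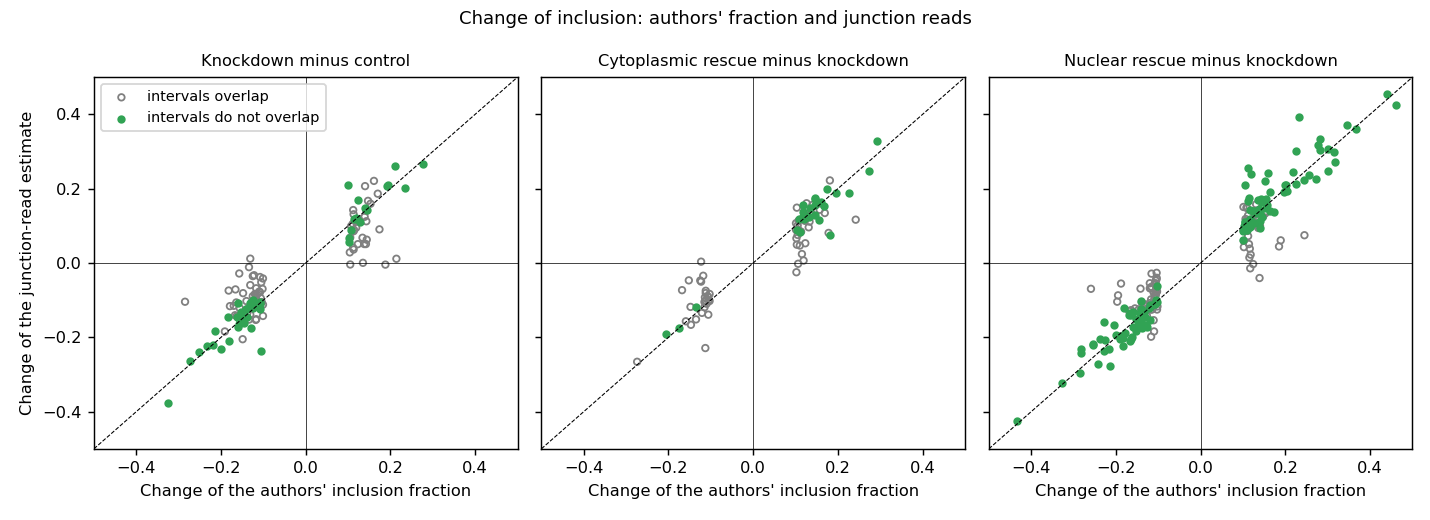
Change of the authors' inclusion fraction (x axis) against the change of the level estimated from junction reads with inclusion reads halved (y axis), 1 point per frame-preserving exon, with the diagonal dashed. Filled points, whose Clopper-Pearson intervals do not overlap between the groups, number 46, 26 and 117 in the 3 panels.

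Levels spanned the whole range. The median inclusion was 0.592 in the control and 0.626 in the knockdown for the 123 exons of that comparison. It was 0.568 in the knockdown and 0.616 in the cytoplasmic rescue for 82 exons, and 0.609 and 0.572 for the 209 of the nuclear comparison. Exons at the edge of the listing had changes of 0.1 to 0.102. They were Ints7 (0.826 and 0.926), Scn1a (0.899 and 0.798) and Smurf2 (0.967 and 0.866) in the knockdown, Mbp (0.579 and 0.680), Tanc2 (0.203 and 0.304) and Alkbh1 (0.349 and 0.451) in the cytoplasmic, and Cask (0.809 and 0.910), Csad (0.524 and 0.625) and Stra13 (0.381 and 0.482) in the nuclear comparison. Exons just outside, with a smaller change, were not analysed here.

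Gene level is a measure that the choice of exons did not use. Most host genes were not called. Host genes of exons listed in the knockdown had a median level of 10.4 FPKM, against 6.54 over all genes. The shares below were not matched for level. In the knockdown 4 of 118 host genes of listed exons passed the authors' q of 0.05 (3.39%), and 2.35% of all 15598 genes did, 0.776% higher and 1.58% lower. Among them Scn1a, a sodium channel, was lower, at 9.84 FPKM in the control and 6.88 in the knockdown (log2 fold change -0.52, q = 0.00857 in the authors' deposited table). Fkbp14, a chaperone of the endoplasmic reticulum, fell from 13.8 to 9.65 FPKM (log2 fold change -0.51, q = 0.0151 in the authors' deposited table). Kcnip2 rose from 21 to 30.9 FPKM (log2 fold change 0.56, q = 0.0339 in the authors' deposited table).

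The exons of these genes were listed in the knockdown with both directions. The Scn1a and Kcnip2 exons were less included. The 90-nt Fkbp14 exon, which holds the stop codon of a transcript annotated for nonsense-mediated decay, stood at 0.141 in the control and 0.265 in the knockdown, and at 0.101 in the nuclear rescue. In the rescues 0 of 79 and 0 of 191 host genes were called by the authors' test, where 0.506% and 0.11% of all genes were. At an unadjusted p below 0.05 in the authors' deposited table the counts were 21 of 118 (17.8%, all genes 10.9%) in the knockdown, 4 of 79 (5.06%, all genes 5.33%) in the cytoplasmic and 3 of 191 (1.57%, all genes 1.05%) in the nuclear rescue. Median log2 fold changes of the host genes were 0.02, -0.05 and -0.00, against 0.02, -0.06 and -0.02 over all genes.

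**Figure D5:**
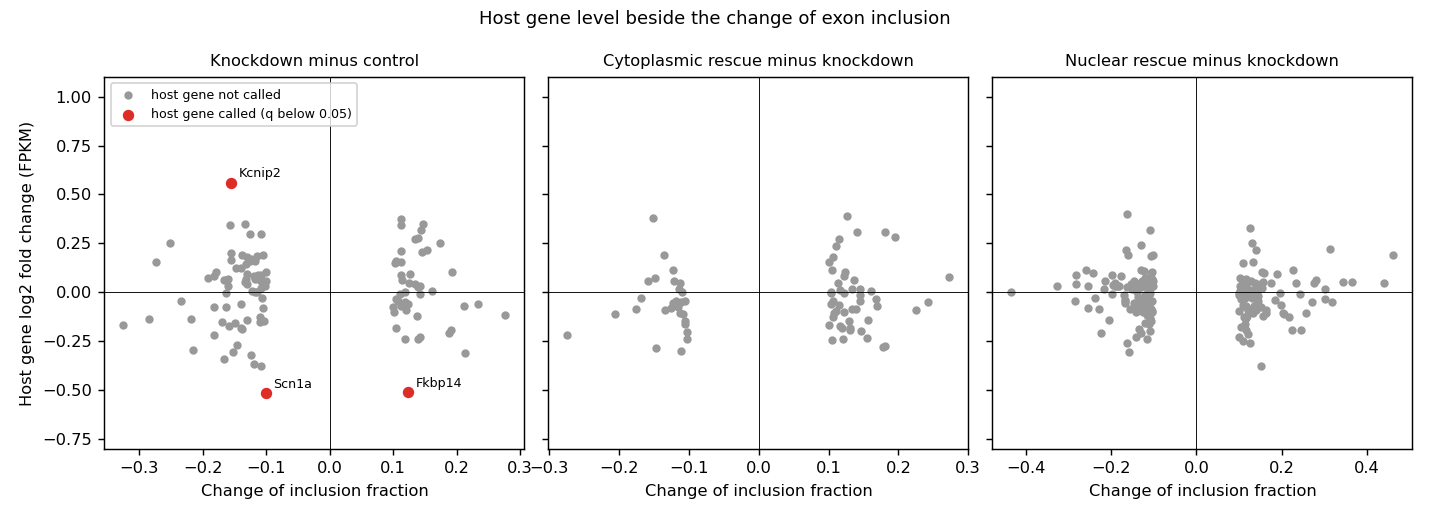
Host gene log2 fold change from the authors' deposited table (y axis) against the change of inclusion fraction (x axis), 1 point per frame-preserving exon with a measured host gene that is reported here. Red points are host genes with a q below 0.05, which are Scn1a, Fkbp14 and Kcnip2 in the knockdown and none in either rescue.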

How the data were processed

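RNA was sequenced from 8 samples of hippocampal cultures, ribosomal RNA removed, paired-end, 50 nt, without strand information, per the labels' protocols. The submitters' processing notes name CASAVA, Cufflinks and mm9, with versions not given in the sources used here. Gene levels are the authors' FPKM per group, with their deposited log2 fold change, p-value and q-value. The cassette exon tables, from SpliceTrap per the file names, hold the authors' inclusion fraction per group, its change, a p-value and junction read counts. Library totals were not analysed here, so depth is known only as junction reads per exon. Another 42 value columns were not used. Nothing in the labels says that samples came from separate cultures, and any spread within a group may be technical.

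Exon length was end minus start, since starts count from 0; positions are printed from 1. Exons were matched to GENCODE M21 by chromosome, strand, exon length and both intron lengths, and the codon frame was read from the annotation. No wholly coding exon held a stop codon in that frame. Clopper-Pearson intervals (95%) used scipy 1.17.1 with pandas 2.3.3 and Python 3.11.15, and were tested on simulated data. Calls at the gene level are the authors', q below 0.05, over all genes of a table; a planned limma fit needed values for each library and was not possible here.

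The exons and gene lists were chosen with earlier results of these data known. Named exons were those listed in all 3 tables, microexons, the 10 largest changes per direction and table with at least 20 junction reads per group, those nearest the listing limit, those whose host gene was called, and the 2 to 4 largest changes per role list. Mapt (93 nt), the exons with TGCATG and those where fraction and junction reads lay apart were picked after their values were seen. Some exons that these rules name are not reported here, though the counts include them. Alternatives covered read minimums of 20 and 100, a change of at least 0.15, the length definition and junction-read direction. They also covered Wilson intervals, intervals with inclusion reads halved, and q, FPKM and fold limits for genes.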

Additional observations from a re-analysis of the deposited data

How the results depend on the processing

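Of 66 alternative values for 13 results, 48 kept the direction and stayed within 1.5 times the count. Taking length as end minus start plus 1, which does not give the true length with starts counted from 0, left 96 exons, with 20 less and 20 more included in the knockdown, 13 and 20 in the cytoplasmic and 36 and 16 in the nuclear rescue. A change of at least 0.15 left 27 less and 11 more, 6 and 14, and 39 and 37, fewer by construction. Less included exons of the cytoplasmic rescue numbered 18 with at least 100 junction reads in each group, and 18 among wholly coding exons, an alternative chosen after seeing the data. Host genes called in the knockdown numbered 1 at q below 0.01, 2 when log2(FPKM + 1) had to differ by 0.5 or more, and 13 over the hosts of all 328 exons.

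No paired analysis was possible because the tables hold 1 value per group, and leaving out a replicate could not be run for the same reason. The window around the exons was not run, since no mm9 genome was used here. Splicing values have no error between samples.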

Other observations

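Host genes of all 328 exons, whether or not the exon was listed in the knockdown, held 13 called genes of 293 (4.44%) in the authors' deposited table for that comparison, 7 higher and 6 lower. Over all 15598 genes 2.35% were called, 0.776% higher and 1.58% lower. The shares were not matched for expression level, which had a median of 10.4 FPKM in the host genes and 6.54 over all genes. Mbp, a myelin protein, was at 11.6 FPKM in the control and 22.6 in the knockdown. Tac1, the precursor of substance P, was at 28 and 15.9, and Rnf112, a neuronal ubiquitin ligase, at 51.2 and 31. Their exons were listed in a rescue comparison and not in the knockdown.

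Several genes held more than 1 of the exons, 26 symbols in all with at most 3 each. Kif21a held 3 in the nuclear comparison, where the 15-nt exon stood at 0.543 in the knockdown and 0.695 in the rescue, the 39-nt exon at 0.267 and 0.383, and the 108-nt exon at 0.713 and 0.571. Eif4g3 held a 114-nt exon beside its microexon, at 0.191 and 0.302, and both were more included in the nuclear rescue.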
